A study of Mus musculus with 3 samples.

Results

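Collagen genes encode the chains of the collagen triple helix, and the 44 described here are all the mouse protein-coding genes whose symbol is Col, a number, a and a number, out of 21646 protein-coding genes on the autosomes and X in the GENCODE M21 annotation. They were set against a DNase-seq map of Müller cells, the radial glia of the retina. In DNase-seq, cuts by the nuclease DNase I reveal accessible chromatin, found mostly at promoters and enhancers. The cells were primary cells from mice of strain B6NCrl at postnatal day 12, with males and females pooled and a healthy state given in the labels. There was 1 group of 3 biological replicates, with no treatment, genotype or control group, and the labels name no sort and no time in culture. The biosample labels of the replicates differ but their donor label is shared, so the spread between them may be partly technical. Promoter accessibility was read as the strongest peak within 1 kb of any annotated start site of a gene. Accessibility away from promoters was read as distal peaks, over 1 kb from every protein-coding start, each given to the gene whose start was nearest within 100 kb. The value of a peak is the authors' deposited score, a whole number of at most 150 whose scale is not stated, so scores are given for each replicate as a description, and genes and sites are set against each other within a replicate. The exceptions are rankings of distal sites and regions by the lowest of their scores, and the mean score used to choose genes to name and to order genes in figures.

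Collagens are the main structural proteins of the extracellular matrix. Fibrillar collagens assemble into cross-striated fibrils that carry tension, type IV collagens form the network of basement membranes, and the remaining families decorate fibrils, form beaded filaments and short networks or span the cell membrane. In the eye, Müller cell endfeet rest on the inner limiting membrane, a basement membrane that faces the vitreous, and the vitreous itself is built on fibrils of types II, V/XI and IX. Accessibility of a promoter does not measure transcription, and nothing below measures collagen RNA or protein.

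The libraries held between 184544 peaks in replicate 3 and 300269 in replicate 1, with 281185 in replicate 2, and their read depth is unknown. All 12 Müller glia markers had a promoter peak in every replicate, and none of 7 rod markers had one in any. Among all protein-coding genes 72.6%, 71.8% and 69.7% had a promoter peak in replicates 1, 2 and 3, and markers of other cells lay above or below these shares. For fibroblasts and mesenchyme, 12, 12 and 11 of 14 non-collagen markers had a peak in replicates 1, 2 and 3, with summed scores of 1020, 913 and 970 and with Lum and Tcf21 at 0 throughout. For endothelium it was 7, 7 and 6 of 10, with summed scores of 627, 562 and 450 and with Tie1, Emcn and Sox17 at 0 throughout. For pericytes and smooth muscle it was 8 of 9 in each replicate, with summed scores of 680, 540 and 556 and with Des at 0. For astrocytes it was 6 of 6 in each, with summed scores of 513, 465 and 467. For pigment epithelium it was 4, 4 and 3 of 7, with summed scores of 308, 282 and 243. For microglia and macrophages it was 12, 12 and 1 of 12, with summed scores of 979, 954 and 115, and Irf8 was the marker left in replicate 3. The part of any other cell type in the collagen results was not tested. Each library pools many cells, so fewer cells with an open site and weaker opening in each cell cannot be told apart.

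Most collagen promoters were accessible in these cells. A promoter peak was found in 38 of 44 genes in replicate 1, where the share among all protein-coding genes was 72.6%, in 37 in replicate 2 (71.8% of all genes) and in 37 in replicate 3 (69.7%). The mean share of collagen genes was 84.8% ± 1.31 (SD, n = 3). In every replicate a peak was present at 37 genes, which is 84.1% against 67.7% of all protein-coding genes. All 11 fibrillar genes and all 8 basement membrane genes were among the 37, together with 18 of the 25 others. Their scores were moderate. Counting a gene without a peak as 0, the median strongest score over the 44 genes was 75, 62 and 73.5 in replicates 1, 2 and 3, and over all genes it was 101, 89 and 90. The basement membrane genes had medians of 114, 110 and 84.5. The fibrillar genes had medians of 76, 62 and 86, and the others of 70, 56 and 71.

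**Figure D1:**
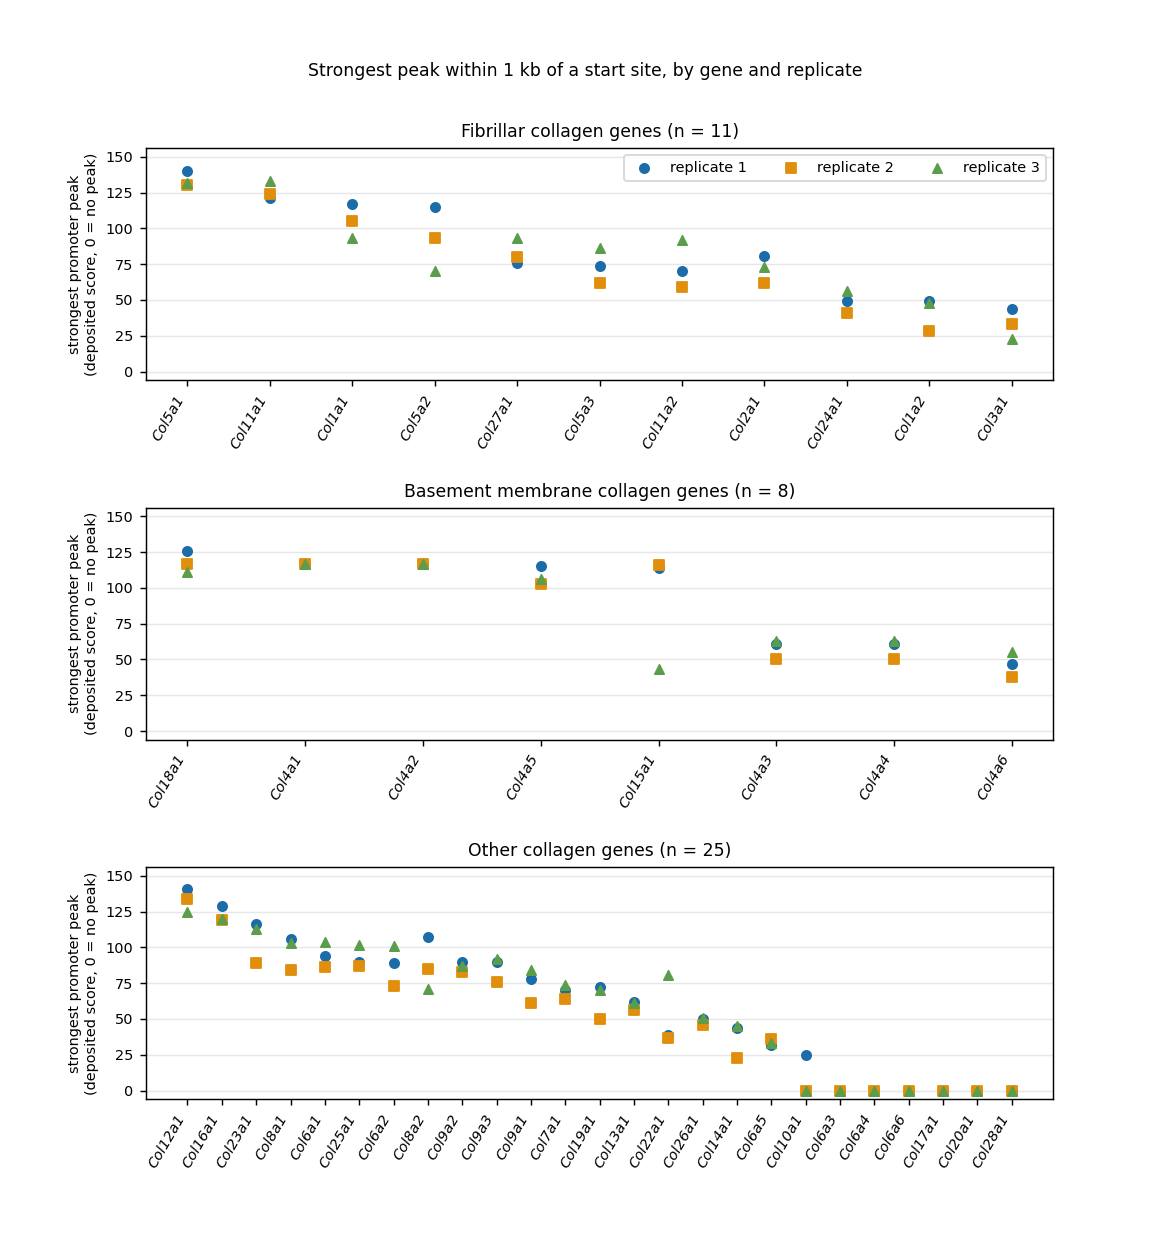
Strongest promoter peak (deposited score, vertical axis, 0 for no peak) of each collagen gene (horizontal axis), with a blue circle, an orange square and a green triangle for replicates 1, 2 and 3 and a panel for each class. Scores run from above 120 in every replicate at Col5a1, Col11a1 and Col12a1 to no peak at the 6 genes on the right of the lowest panel.

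Among the fibrillar genes the strongest promoters were those of Col5a1 and Col11a1, which encode chains of types V and XI, the minor fibrillar collagens that are built into fibrils of the major types. Col5a1, on chromosome 2 from 27886425 to 28039514 on the plus strand, had a strongest promoter peak with a score of 140, 130 and 132 in replicates 1, 2 and 3, above 98.4%, 97.1% and 98.1% of all peaks. Col11a1, on chromosome 3 from 114030540 to 114220718 on the plus strand, scored 121, 124 and 133. Both were high in every replicate. The peak of Col5a1 sat just upstream of the first start. Its sequence is shown because it was the strongest promoter of the class, on the plus strand of mm10 at chr2:27886256-27886405, with the GC box GGGCGG, which factors of the SP family recognise, in capitals.
Col5a1 promoter peak: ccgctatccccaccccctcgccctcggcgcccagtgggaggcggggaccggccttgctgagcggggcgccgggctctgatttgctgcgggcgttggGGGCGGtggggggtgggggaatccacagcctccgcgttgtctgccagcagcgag

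Type I collagen, the main collagen of skin, bone and fibrous tissue, is made from 2 genes that differed here. Col1a1, on chromosome 11 from 94936224 to 94953042 on the plus strand, scored 117, 105 and 93. Col1a2, on chromosome 6 from 4504814 to 4541544 on the plus strand, scored 49, 28 and 48. In each replicate Col1a1 scored above Col1a2 within the 1 kb window. The Col1a2 peak lay at a start, with centres at -23, -63 and -23 bp. With a window of 500 bp Col1a2 kept a peak in every replicate and Col1a1 did not. Within replicates the Col1a1 peak stood above 91.6%, 90.3% and 87.1% of all peaks and the Col1a2 peak above 44.6%, 23.5% and 57.4%. The strongest Col1a1 peak did not lie at the start: its centre was 906, 886 and 886 bp into the gene in replicates 1, 2 and 3. It is shown as an example of a promoter signal displaced into the gene, on the plus strand at chr11:94937056-94937205. It overlapped no annotated exon, and capitals mark a GC box on the other strand (CCGCCC) and a match to the CTCF consensus, also on the other strand.
Col1a1 intronic peak: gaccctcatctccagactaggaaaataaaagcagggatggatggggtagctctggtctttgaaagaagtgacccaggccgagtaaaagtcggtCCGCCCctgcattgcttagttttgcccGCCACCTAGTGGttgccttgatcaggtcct

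The other fibrillar promoters were intermediate or low. Col5a2, which encodes the partner chain of Col5a1, scored 115, 93 and 70, and its peak at chr1:45503036-45503185 lay inside the gene, 172 bp from its start in replicates 1 and 2. Col27a1, a fibrillar collagen of cartilage, scored 76, 80 and 93, with a different strongest peak in replicate 2 (centres at 715, -45 and 695 bp from the start). Col2a1, the main collagen of cartilage and vitreous, scored 81, 62 and 73. Col11a2 scored 70, 59 and 92, above 65.8%, 65.3% and 86.7% of the peaks of each replicate. Col5a3 scored 74, 62 and 86, above 69%, 67.9% and 84.3%. Col24a1 scored 49, 41 and 56. Col3a1, which forms fine fibrils with type I collagen in skin and vessel walls, was the lowest of the class with 44, 33 and 23, above 38%, 33.1% and 17.6% of all peaks. Col3a1 and Col5a2 are neighbours on chromosome 1, 24614 bp apart, and Col5a2 scored above Col3a1 in each replicate.

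The type IV genes lie in head-to-head pairs, and the pairs differed. Col4a1 and Col4a2 encode the chains of the common basement membrane network. Their starts on chromosome 8 lie 21 bp apart on opposite strands, so each peak there belongs to both, and the shared peak scored 117 in each of the 3 replicates, above 91.6%, 93.8% and 94.7% of all peaks. Col4a3 and Col4a4, on chromosome 1, encode chains of the specialised network of the kidney glomerulus, lung and some basement membranes of the eye and ear. Their protein-coding starts lie 127 bp apart, and their strongest shared peak scored 61, 50 and 63. Col4a5 and Col4a6, on chromosome X, have starts 1309 bp apart and shared no promoter peak. Col4a5, the third chain of the specialised network, scored 115, 103 and 106, and Col4a6, a chain of smooth muscle and epithelial basement membranes, scored 47, 38 and 55. In each replicate Col4a5 scored above Col4a6. The stretch between the annotated bodies of Col4a3 and Col4a4 is shown because the strongest shared peaks of replicates 2 and 3 overlap it. It covers chr1:82586850-82586920 on the plus strand, which is the coding strand of Col4a3, and it held no match to the 11 motifs searched, so it has no capitals.
Col4a3 and Col4a4 intergenic: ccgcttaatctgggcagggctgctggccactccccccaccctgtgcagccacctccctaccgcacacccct

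The basement membrane class also holds Col15a1 and Col18a1, the multiplexins, whose C-terminal fragments are known as restin and endostatin. Col18a1, on chromosome 10 from 77052178 to 77166548 on the minus strand, scored 126, 117 and 111 at its promoter. Col15a1, on chromosome 4 from 47208161 to 47313167 on the plus strand, scored 114, 116 and 43. Replicate 3 stood apart at Col15a1, where its score lay above 51.3% of its own peaks while the other replicates reached 90.6% and 93.5%. These are peaks at different starts: the last start in replicates 1 and 2, and the first in replicate 3. At the first start the scores were 50, 40 and 43, and at the last 114, 116 and 39.

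Among the other collagens the 2 strongest promoters were those of FACIT genes, whose products bind to the surface of fibrils. Col12a1, on chromosome 9 from 79598991 to 79718831 on the minus strand, scored 141, 134 and 125. Col16a1, on chromosome 4 from 130047840 to 130099283 on the plus strand, scored 129, 119 and 120. The type IX chains, which coat type II fibrils in cartilage and vitreous, were intermediate and alike: Col9a2 scored 90, 83 and 87, Col9a3 scored 90, 76 and 92, and Col9a1 scored 78, 61 and 84. Col19a1 scored 72, 50 and 70. Col14a1 scored 44, 23 and 45, and its strongest peak lay at a different place in each replicate. Col22a1 scored 39, 37 and 81, above 30.6%, 39.7% and 82% of the peaks of each replicate, with the peak over the same start in all 3. In all, 8 of 9 FACIT genes had a promoter peak in every replicate, against 67.7% of all genes.

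The remaining families were uneven. Of the 6 beaded filament genes of type VI, which form microfibrils close to cells, Col6a1 with 94, 86 and 104 and Col6a2 with 89, 73 and 101 were accessible in every replicate, as was Col6a5 with 32, 36 and 33. Col6a1 and Col6a2 are neighbours on chromosome 10, 85161 bp apart, and they encode chains that assemble with the product of Col6a3, which had no promoter peak. Of the short-chain collagens, Col8a1 scored 106, 84 and 103 and Col8a2 scored 107, 85 and 71, and both are known as components of Descemet's membrane of the cornea. Of the transmembrane collagens, Col23a1 scored 116, 89 and 113, Col25a1 scored 90, 87 and 102 and Col13a1 scored 62, 56 and 61. At Col8a1 and Col23a1 the strongest peak of replicate 3 was another than that of replicates 1 and 2. Its centre was at -893, -953 and -33 bp from the start at Col8a1 and at -250, -250 and -10 bp at Col23a1. Col7a1, the anchoring fibril collagen of skin, scored 70, 64 and 74. Col26a1 scored 50, 46 and 51.

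A promoter peak was absent from 6 collagen genes in all 3 replicates: Col6a3, Col6a4, Col6a6, Col17a1, Col20a1 and Col28a1. Among all protein-coding genes the share with none was 25.5%. Col17a1 encodes a hemidesmosome collagen of epithelia. Col10a1, the collagen of hypertrophic cartilage, had a peak with a score of 25 in replicate 1 and none in replicates 2 and 3, and that peak scored above 7.75% of the peaks of its replicate. No other collagen gene was called in 1 or 2 replicates, against 6.79% of all genes. No collagen promoter was called in replicates 1 and 2 without replicate 3, against 3.02% of all genes. None was called in replicate 3 alone, against 0.827% of all genes. With 44 genes, finding none is close to both of these shares. The calls are by gene over all its starts, and a single start can differ: the last start of Col4a1 scored 48, 32 and 0.

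Several collagen genes have more than 1 start site, and the starts of a gene were not equally accessible. At Col9a1 the first (5′-most) start had no peak within 1 kb in any replicate, whereas the internal start 17577 bp downstream scored 78, 61 and 84. In chick and mammals the downstream start is known to give the short form of the alpha 1(IX) chain that is found in the eye. The 120 bases before the internal start are shown, on the plus strand at chr1:24195067-24195186. They held no match to the motifs searched.
Col9a1 upstream of the internal start: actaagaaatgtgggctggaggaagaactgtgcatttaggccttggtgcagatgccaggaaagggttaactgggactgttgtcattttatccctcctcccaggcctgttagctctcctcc

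At Col8a2 the first start scored 46, 0 and 45 and the start 13737 bp downstream scored 107, 85 and 71, so the downstream start was the higher in every replicate. At Col15a1 the first start scored 50, 40 and 43, the group of starts from 79896 bp downstream had no peak, and the last start, 95561 bp downstream, scored 114, 116 and 39. In replicates 1 and 2 the last start was the stronger, and in replicate 3 the first.

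At the other genes of this kind the first start was the strongest. At Col18a1 the first start scored 126, 117 and 111, the start 52602 bp downstream scored 99, 87 and 63, the one 77120 bp downstream scored 118, 108 and 79, and the last, 106551 bp downstream, had no peak. At Col16a1 the first start scored 129, 119 and 120 and the one 7170 bp downstream scored 106, 102 and 78. At Col4a1 the start 33170 bp downstream scored 101, 92 and 91, and the one 101995 bp downstream scored 48, 32 and 0. At Col13a1 the start 112695 bp downstream scored 58, 36 and 37. Internal starts over 1 kb from the first had no peak in any replicate at Col3a1, Col4a3, Col4a5, Col5a1, Col12a1, Col14a1, Col22a1 and Col23a1. A peak near an internal start can also be an enhancer inside the gene, and DNase-seq alone does not separate them.

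**Figure D2:**
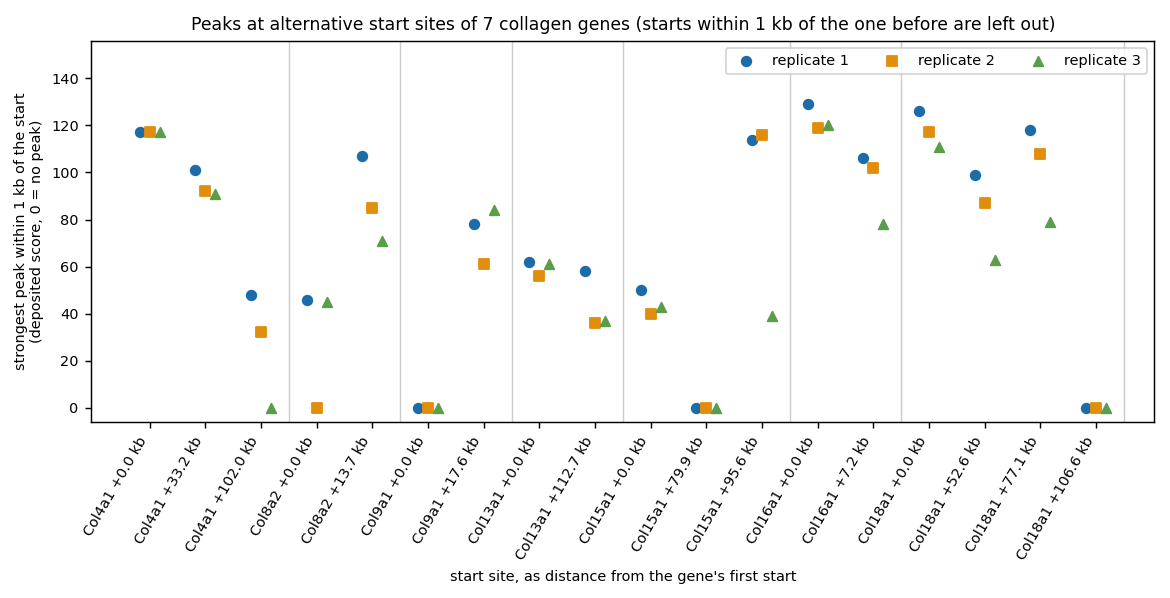
Strongest peak within 1 kb (deposited score, vertical axis, 0 for no peak) at each start of 7 collagen genes, labelled by its distance in kb from the first start of the gene, with markers for replicates 1, 2 and 3. The first start of Col9a1 is at 0 in every replicate while its internal start scores 61 to 84.

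At several collagen genes the strongest promoter peak lay inside the gene and not at its start. Its centre was over 200 bp downstream of the nearest own start in every replicate at 10 of the 37 genes with a peak in every replicate (27%), and at 7.06% of the 14661 such genes in the genome. It was within 200 bp of a start in every replicate at 21 of the 37 (56.8%), against 72% of all such genes. The 10 displaced genes were Col1a1, Col3a1, Col11a2 and Col24a1 of the fibrillar class, and Col8a2, Col9a2, Col9a3, Col13a1, Col19a1 and Col26a1. At Col3a1 the centres were at 612, 632 and 612 bp. In the basement membrane class 7 of 8 genes had the peak at the start in every replicate, and none was displaced downstream. Col7a1 was the 1 gene with its peak over 200 bp upstream in every replicate, with centres at -336, -336 and -356 bp. The displacement matters for counts made close to the start. With a window of 500 bp in place of 1 kb, 7 fibrillar genes in place of 11 had a peak in every replicate. The share of all protein-coding genes at that window was 65.7%. The 4 fibrillar genes lost were Col1a1, Col3a1, Col11a2 and Col24a1.

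**Figure D3:**
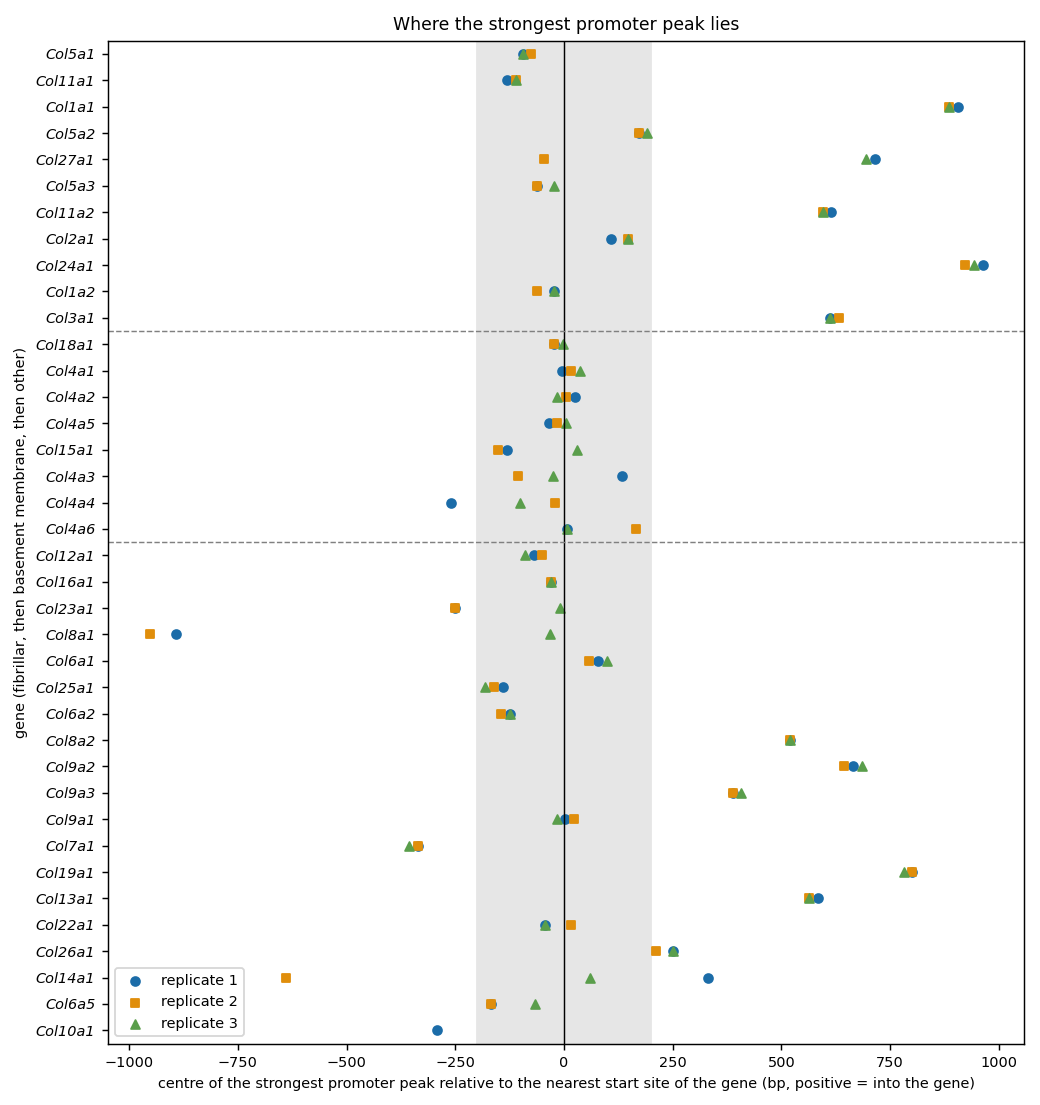
Centre of the strongest promoter peak relative to the nearest start of the gene (bp, horizontal axis, positive into the gene) for the 38 collagen genes with a peak (vertical axis), with markers for replicates 1, 2 and 3 and grey shading within 200 bp of the start. Basement membrane genes, between the dashed lines, lie in the shaded band but for Col4a4 in replicate 1, and 10 genes of the other classes lie to its right in every replicate.

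Collagen promoters were poor in CpG dinucleotides. The observed over expected CpG ratio within 500 bp either side of the first start had a median of 0.444 over the 44 genes and 0.566 over all protein-coding genes. The ratio was taken within 500 bp of the first start, and the peak was counted within 1 kb of any start. The measures below can therefore refer to different starts, and a peak can lie outside the sequence measured. A ratio of at least 0.6 was found at 13 collagen genes (29.5%), against 47% of all genes. All 13 had a promoter peak in every replicate, as did 96.6% of all genes at that ratio, but Col8a2 had it in every replicate only at its later start. Below 0.6, 24 of 31 collagen genes (77.4%) had a peak in every replicate, against 42.2% of all genes, and these included 8 of 8 fibrillar and 5 of 5 basement membrane genes. The 24 also include Col9a1, whose first start had no peak. CpG-poor first starts with a peak within 1 kb in every replicate included those of Col3a1 with a ratio of 0.178, Col1a2 with 0.211 and Col6a1 with 0.216. At Col3a1 and Col1a2 the strongest peak lay outside the 500 bp used for the ratio. The CpG-poor fibrillar genes Col1a1, Col3a1, Col11a2 and Col24a1 lacked a peak within 500 bp of a start in at least 1 replicate. Col10a1 and the 6 genes with no promoter peak ran from 0.0844 to 0.344.

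RefSeq promoter windows on GRCm38 (mm10), from 250 bases before to 50 after a start, were matched to 35 of the 44 genes and gave 38 windows. The GC box GGGCGG, searched on both strands as were all motifs, was in 23 of the 38 windows (60.5%), against 35.7% of all RefSeq promoter windows. The CCAAT box was in 34.2% against 37.4%, and TATAAA in 13.2% against 13.6%. The SOX consensus ACAATG and the AP-1 consensus TGANTCA were each in 1 window (2.63%), against 12.6% and 7.81% of all. The RUNX consensus TGTGGT was in 3 windows (7.89%), against 16.8%. The TEAD consensus GGAATG was in 13.2% against 14.7%, the NFI motif TTGGCA in 18.4% against 14.1%, and the homeobox core TAATTA in 5.26% against 5.29%. The CTCF consensus was in 1 window (2.63%), against 2.43%, and the PU.1 type ETS motif GAGGAAGT in none, against 3.2%. A match describes the letters and is not a bound site.

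The order of collagen promoters was much the same in each replicate. Over the 37 genes with a peak in every replicate, the strongest scores of replicates 1 and 2 had a Spearman's rho of 0.978, those of replicates 1 and 3 of 0.822, and those of replicates 2 and 3 of 0.823. Over all genes with a peak in both replicates it was 0.974, 0.897 and 0.897. These values are across genes, which are not independent, and the paired type IV genes share peaks. By the share of peaks scoring lower within a replicate, replicate 3 stood furthest from the nearer of the other replicates at Col22a1, with 30.6%, 39.7% and 82%, and at Col15a1, with 90.6%, 93.5% and 51.3%. At Col15a1 the peak of replicate 3 was at another start than those of replicates 1 and 2. Col4a6 followed with 42.1%, 41.3% and 64.3%, Col11a2 with 65.8%, 65.3% and 86.7%, and Col24a1 with 44.6%, 45.6% and 65.2%.

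Collagen genes had many distal accessible sites. Peaks that overlapped were merged, and a region to which each of the 3 replicates contributed is called reproducible here. Of these regions 481 were distal and given to collagen genes, a mean of 10.9 and a median of 8 per gene against 3.98 and 2 over all protein-coding genes. At least 1 site was given to 43 of 44 genes, against 69.8% of all genes, and at least 10 sites to 18 of 44, against 12.5%. Collagen genes are long, with a median length of 114388 bp against 17385 bp, and the stretch of genome nearest to their starts is wide, with a median of 131216 bp against 43184 bp. Per 100 kb of that stretch they held 8.5 sites, against 5.71 over all genes. The density was 11 in the basement membrane class, 8.64 in the fibrillar class and 7.52 in the others. The replicates alone gave 907, 868 and 595 distal peaks to collagen genes.

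**Figure D4:**
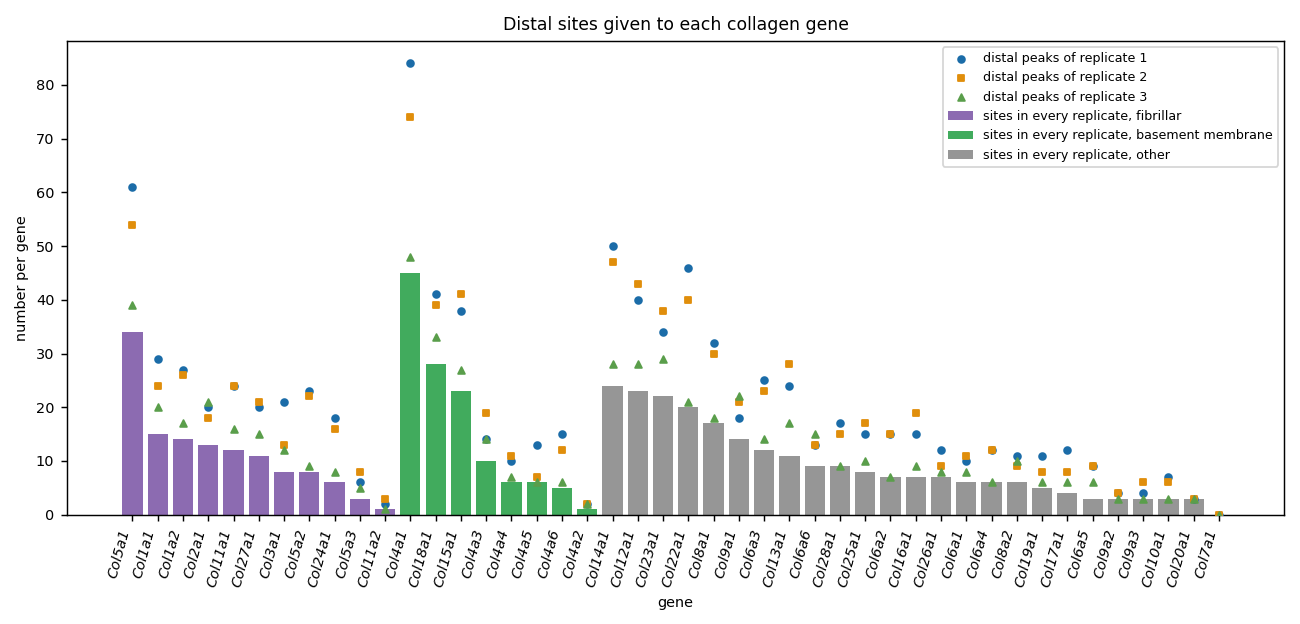
Number per gene (vertical axis) of distal sites found in every replicate (bars, coloured by class) and of distal peaks in replicates 1, 2 and 3 (markers) for the 44 collagen genes (horizontal axis). Col4a1 with 45 reproducible sites, Col5a1 with 34 and Col18a1 with 28 stand highest, and replicate 3 has fewer peaks than the other replicates at most genes.

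The richest fibrillar locus was Col5a1, with 34 reproducible sites and 61, 54 and 39 distal peaks in replicates 1, 2 and 3. Of its sites 20 lay in the gene and 14 between genes. Col1a1 had 15 sites, 12 of them between genes upstream, and 8 of the 15 scored above 75% of all peaks in every replicate. Col1a2, with its weak promoter, had 14 sites, 11 of them between genes, and the strongest of these scored 139, 134 and 107. Col2a1 had 13 sites, or 21.8 per 100 kb of the stretch nearest to its starts, and Col11a1 had 12. Col3a1 had 8 sites in a stretch of 204082 bp, or 3.92 per 100 kb, where the stretch of Col2a1 was 59625 bp. Col27a1 had 11 sites, and Col11a2 had 1.

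In the basement membrane class the Col4a1 and Col4a2 locus was the richest. Col4a1 was given 45 sites and Col4a2 1, but the split follows from where the annotated starts lie. With 21 bp between the first starts, any site on the Col4a2 side lies nearer to the first start of Col4a1. Sites on the Col4a1 side went to Col4a1 where its internal starts were nearer than the start of Col4a2. Of the 45, 22 lay in the body of Col4a2, 13 in Col4a1 and 10 between genes. Col18a1 had 28 sites, of which 12 scored above 75% of peaks in every replicate, and Col15a1 had 23, of which 9 did. Col4a3 had 10 sites and Col4a4 had 6, all inside their genes. Col4a5 had 6 and Col4a6 had 5.

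Among the others, Col14a1, with its weak promoter, had 24 sites, with 50, 47 and 28 distal peaks in replicates 1, 2 and 3. Col12a1 had 23 sites, Col23a1 had 22, of which 21 were inside the gene, Col22a1 had 20 and Col8a1 had 17. Col9a1 had 14, of which 11 were inside the gene. The genes without a promoter peak in every replicate were not empty: Col6a3 had 12 sites, Col28a1 and Col6a6 had 9 each, Col6a4 had 6, Col17a1 had 4, and Col20a1 and Col10a1 had 3 each. By the lowest of its 3 scores, the strongest site at Col6a3 scored 100, 82 and 97 and lay in an exon of the gene. Another Col6a3 site, between genes, was higher in replicates 1 and 2, with 119, 105 and 74. The strongest site at Col28a1 scored 124, 113 and 80 and lay in an intron. Col7a1 was the 1 collagen gene with no distal site, and the stretch nearest to its starts was 17217 bp. Nearness does not show which gene a site acts on.

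Collagen distal sites lay mostly inside the genes. Of the 481, 295 (61.3%) had their centre in the gene they were given to, against 47.3% of all reproducible distal sites. Collagen genes are long, with a median of 114388 bp against 17385 bp, and the part of gene length in this share was not tested. A further 150 (31.2%) lay between genes and 36 in another gene. In the fibrillar class 49.6% were in the own gene, in the basement membrane class 59.7% and in the others 68.5%. Site scores were slightly above those of all distal sites, with medians of 83, 70 and 48 in replicates 1, 2 and 3 against 78, 65 and 46. Of the 481 sites 120 (24.9%) scored above 75% of peaks in every replicate, against 21.4% of all distal sites. The share was 30.6% in the basement membrane class, 28.8% in the fibrillar class and 19.8% in the others.

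Ranked by the lowest of their 3 scores, the top distal sites of the collagen genes came from all classes. The first was an intergenic site upstream of Col1a1, its centre at -7244 bp from the start, with scores of 135, 136 and 132. The second lay in an intron of Col18a1, at -16324 bp from the second of its starts, with 136, 132 and 128. The third lay between genes at -27675 bp from the start of Col5a1, at chr2:27858676-27858825, with 136, 128 and 126. An intronic site of Col12a1 at chr9:79680956-79681125 scored 141, 136 and 125. The fifth, given to Col4a1, lay in an intron of Col4a2, with 147, 145 and 124. These 5 scored above at least 96.4% of the peaks in every replicate.

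The next 5 all lay in introns of the gene they were given to. The site of Col4a3 at chr1:82634556-82634785 scored 121, 124 and 125, in every replicate above the strongest promoter peak of Col4a3. The site of Col16a1 at chr4:130075196-130075365 scored 141, 138 and 119. The site of Col15a1 at chr4:47227896-47228065 scored 139, 135 and 119, above at least 95.2% of the peaks in every replicate. The site of Col2a1 scored 140, 124 and 118, in every replicate above the strongest promoter peak of Col2a1. The site of Col9a3 at chr2:180600756-180600925 scored 126, 126 and 118.

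The sequences of 4 of these sites are shown, as top-ranked distal sites at loci of the interstitial, basement membrane and vitreous collagens. Each covers the merged peaks of the 3 replicates on mm10 and overlapped no annotated exon. The Col1a1 site is chr11:94928896-94929065 on the plus strand, with GC boxes in capitals. The Col4a1 site is chr8:11382496-11382765 and the Col18a1 site is chr10:77130176-77130365, both on the minus strand, with the TEAD consensus (GGAATG or its complement CATTCC) and the NFI motif TTGGCA in capitals. The Col18a1 site also held a match to the RUNX consensus TGTGGT on 1 strand, left in lower case. The Col2a1 site is chr15:97992996-97993205 on the minus strand, with CCAAT boxes (ATTGG) and a GC box in capitals.
Col1a1 distal: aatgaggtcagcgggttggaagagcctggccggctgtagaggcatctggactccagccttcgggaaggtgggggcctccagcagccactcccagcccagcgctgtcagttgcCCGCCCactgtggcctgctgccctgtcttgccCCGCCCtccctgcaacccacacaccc
Col4a1 distal: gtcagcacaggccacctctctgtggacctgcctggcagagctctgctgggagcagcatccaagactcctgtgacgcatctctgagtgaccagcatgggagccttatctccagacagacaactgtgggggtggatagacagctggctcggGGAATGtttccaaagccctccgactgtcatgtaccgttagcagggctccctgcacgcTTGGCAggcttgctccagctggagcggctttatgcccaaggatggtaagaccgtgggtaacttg
Col18a1 distal: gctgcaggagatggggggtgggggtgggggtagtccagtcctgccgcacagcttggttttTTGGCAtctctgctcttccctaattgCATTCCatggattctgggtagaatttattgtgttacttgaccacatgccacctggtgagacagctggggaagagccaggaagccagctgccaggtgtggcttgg
Col2a1 distal: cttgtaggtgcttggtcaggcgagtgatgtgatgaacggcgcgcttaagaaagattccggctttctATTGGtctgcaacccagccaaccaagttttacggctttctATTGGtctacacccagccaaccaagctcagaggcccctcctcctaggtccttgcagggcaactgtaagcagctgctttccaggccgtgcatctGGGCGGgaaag

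**Figure D5:**
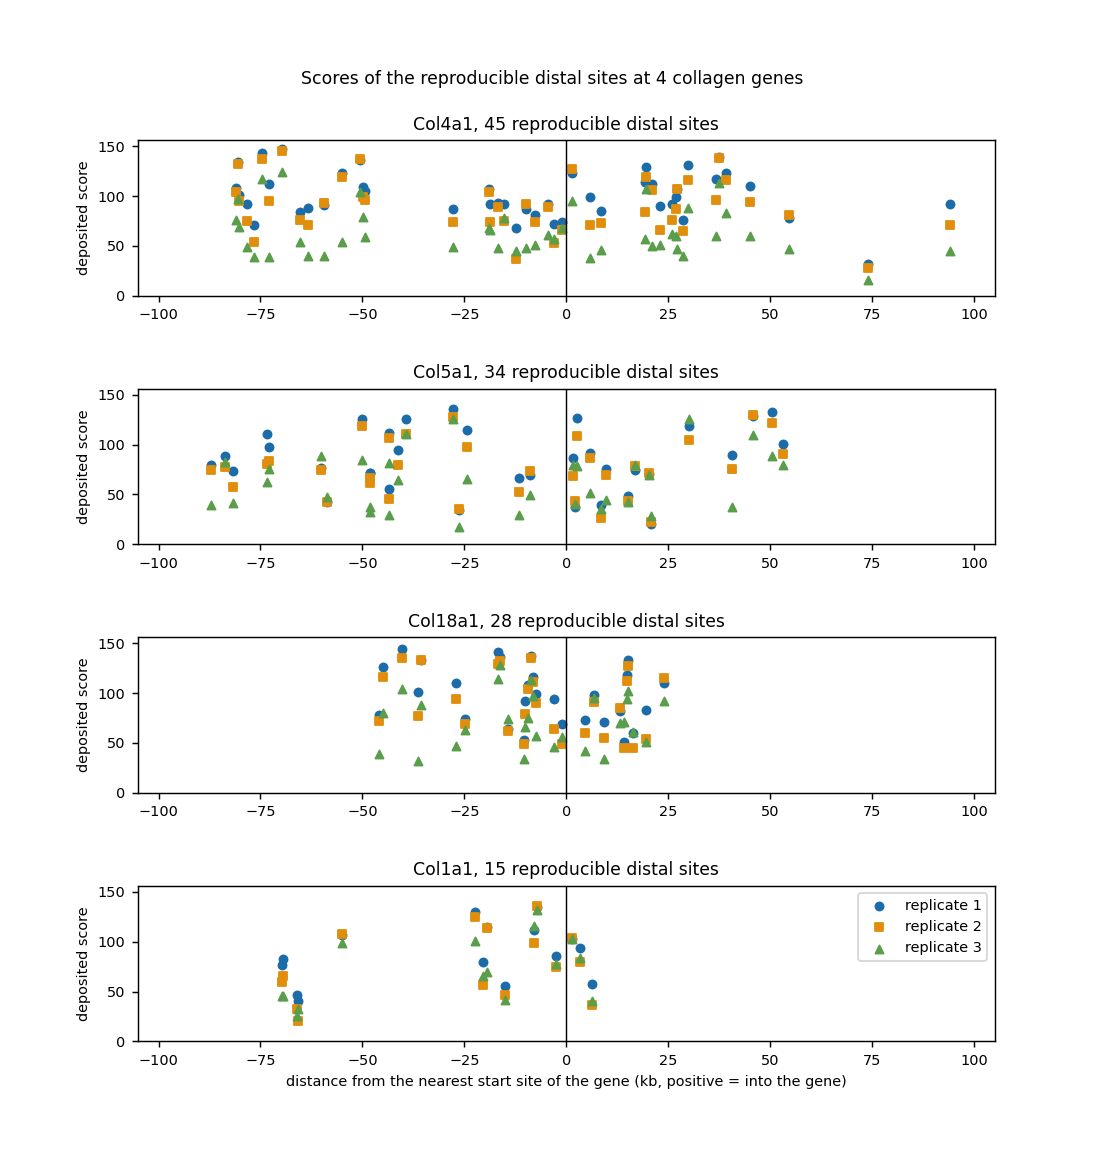
Deposited score (vertical axis) of every reproducible distal site at Col4a1, Col5a1, Col18a1 and Col1a1 against its distance in kb from the nearest start of the gene (horizontal axis, positive into the gene), with markers for replicates 1, 2 and 3. Internal starts count, so a negative value can lie inside the gene: at Col18a1 18 sites lie upstream of the nearest start and 8 between genes. Sites of Col4a1 lie on both sides of the start, 22 of the 45 being in the body of Col4a2, and 12 of the 15 Col1a1 sites lie upstream.

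Fewer than 1 in 2 distal regions were found in every replicate. Of the 1062 merged distal regions given to collagen genes, 45.3% were shared by the 3 replicates, against 39.8% of all distal regions. A further 262 (24.7%) were in replicates 1 and 2 alone, against 27.2%, and 69 (6.5%) in replicate 3 alone, against 5.34%. The strongest region without a replicate 3 peak lay near Col5a1 at chr2:27835816-27836025, with scores of 103 and 104 in replicates 1 and 2. Replicate 3 did have a peak close by: a site of all 3 replicates at chr2:27836156-27836305 scored 126, 119 and 85. The next regions without a replicate 3 peak lay near Col4a1 with 96 and 93 and near Col15a1 with 87 and 86. The strongest region found in replicate 3 alone scored 79 and lay at chr4:47151996-47152145, 56016 bp from the nearest start of Col15a1. A site of all 3 replicates lay beside it at chr4:47151676-47151885, with 132, 122 and 98. Regions of replicate 3 alone at Col6a3, Col5a3 and Col12a1 scored 67, 66 and 63. The Col5a3 region lay beside a region of replicates 1 and 2 alone, and the Col12a1 region beside a site of all 3. A region called in some replicates alone can thus be a shifted or neighbouring peak at a locus called in all. Replicate 3 also had the fewest peaks and the lowest microglial marker score, and their part in these differences was not tested. Without replicate 3, 744 distal sites were shared by the other replicates, a mean of 16.9 per collagen gene against 6.71 over all genes.

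Motif matches in 150 bp round the centre of a distal site were near the genome-wide share for most motifs. The AP-1 consensus TGANTCA was in 122 of the 481 collagen sites (25.4%), against 20.6% of all distal sites. The TEAD consensus GGAATG was in 112 (23.3%), against 19%. AP-1 reached 28.2% in the basement membrane class, 26.4% in the fibrillar class and 23.3% in the others. The NFI motif TTGGCA was in 16.6% against 17.1%, the SOX consensus ACAATG in 10.8% against 11.3%, and the RUNX consensus TGTGGT in 17.7% against 17.1%. The homeobox core TAATTA was in 4.16% against 5.83%, and the CTCF consensus in 21 sites (4.37%) against 7.65%. The PU.1 type ETS motif GAGGAAGT, of the factor that marks macrophages, was in 5 sites (1.04%) against 1.3%. The CCAAT box was in 21.4% against 20.5%, GGGCGG in 6.03% against 6.5% and TATAAA in 5.2% against 4.37%.

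Of 44 partner genes, which act on collagen, 41, 42 and 37 had a promoter peak in replicates 1, 2 and 3, where 72.6%, 71.8% and 69.7% of all genes did. In every replicate 37 (84.1%) had one, against 67.7% of all genes, the share against which the counts by role below also stand. All 17 modifying enzymes and chaperones did, with median scores of 136, 131 and 122. Serpinh1, the collagen chaperone HSP47, scored 142, 141 and 143, and P4hb, the shared subunit of prolyl 4-hydroxylase, scored 148, 146 and 141. Of 12 genes of propeptide cleavage and cross-linking 11 had a peak in every replicate. Among them Bmp1, the procollagen C-proteinase, scored 97, 80 and 118, and Loxl2, a lysyl oxidase, had none in any replicate.

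Receptors and collagenases were less uniform. Of 10 receptor genes 8 had a promoter peak in every replicate, led by Itgb1, the beta chain of the collagen-binding integrins, with 146, 144 and 146 and by Ddr1, a collagen-activated receptor kinase, with 145, 147 and 140. Lair1, an inhibitory collagen receptor of leukocytes, scored 68, 62 and 0, and Gp6, the collagen receptor of platelets, had no peak. Of 5 degrading enzymes Mmp14, a membrane-bound collagenase, was accessible in every replicate with 126, 119 and 121. Mmp2 scored 37, 19 and 0, Mmp8 scored 46, 37 and 0, Mmp13 scored 55, 37 and 0, and Mmp9 scored 0, 27 and 0. All 4 lacked a peak in replicate 3, the replicate with peaks at 1 of 12 microglial markers, and the part of microglia in this was not tested.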

How the data were processed

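DNase-seq was carried out on 3 biological replicates of mouse Müller cells. Per the file headers, the authors deposited peaks and hotspots for each library on mm10, derived from its filtered alignments, with no pooling of replicates. In the sources used here the aligner, the peak caller and their versions and filters are not given. The deposited peak value is a score, a whole number from 1 to 150. The highest score was 150 in every replicate, and whether scores saturate there is not stated. The deposited hotspot value is a −log10 q from 1.3 to a cap of 100, and hotspots were used only as an alternative to peaks. No counts come with the lists, so read depth is unknown and no interval could be given. All columns of per-sample values were mapped.

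Repeated peaks (20 to 23 per replicate) were removed. Start sites were those of GENCODE M21 protein-coding transcripts, 1 gene per symbol. Peaks overlapping by at least 1 bp were merged, and sites on autosomes and X were given to genes by distance. Sequences and CpG ratios came from RefSeq's GRCm38 genome, whose chromosome lengths fit the peaks and genes, and promoter windows from RefSeq's promoter table for that build. Python 3.11.15, numpy 2.4.6, scipy 1.17.1 and matplotlib 3.10.9 were used, and the assignment, merging and motif search were tested on simulated data.

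The study has 1 group, so no comparison between groups and no test was made. The collagen genes, their classes and the partner, marker and motif lists were chosen with earlier results of these data known. Genes named were, in each class, the 5 with the highest mean strongest promoter score and the 5 with the most distal sites, genes called in fewer than 3 replicates, the 10 top distal sites, and partners called in fewer than 3 replicates. Other genes were named to account for every collagen gene, and the other partners named were chosen after their values were seen. Alternatives covered the promoter window, the peaks used, the overlap, the distance limits, the start sites and leaving out each replicate.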

Additional observations from a re-analysis of the deposited data

How the results depend on the processing

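Of 60 alternative values, 57 stayed within 1.5 times the value reported. A promoter window of 500 bp left 7 fibrillar genes with a peak in every replicate, in place of 11. It left 31 of the 44 collagen genes, against 65.7% of all genes. Distal sites at collagen genes numbered 271 with the strongest 50% of peaks, in place of 481, a mean of 6.16 per gene against 2.05 over all genes. Leaving out 1 replicate gave 491 to 744, the highest without replicate 3. The collagen promoters with a peak in every replicate numbered from 29 (strongest 50% of peaks) to 39 (window of 2500 bp, which added Col20a1 and Col28a1). The shares of all genes at these 2 settings were 61.5% and 71.9%. With the strongest 50% of peaks and with the 500 bp window, the gap to all genes was narrower than with the main settings. With any 1 replicate left out the number was 37, against 68% to 70.7% of all genes. With replicates limited to equal numbers of their strongest peaks, Col14a1, Col1a2, Col22a1 and Col6a5 lost their call. That left 33 genes, against 65.1% of all genes. With the 5′-most start alone Col8a2 and Col9a1 lost their call. A peak in every replicate need not be the same site: 35 genes had a merged site with a peak of all replicates, against 67.1% of all genes. Col14a1 and Col4a6 were the genes lost. With partners, the count without replicate 3 was 41 in place of 37, against 70.7% of all genes.

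Depth is unknown, so a missing peak means only that none was called in that library. The highest score was 150 in every replicate, and neither the scale of the scores nor whether they saturate there is stated. Genes that share a start region share peaks. No paired analysis was possible because there is 1 group.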
